A study of Mus musculus with 16 samples.

Results

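Enteroendocrine cells are the scattered hormone-producing cells of the gut epithelium, and 10 of their transcripts were followed here across 2 regions and 2 ages of the mouse small intestine. The genes were chosen by symbol, as known hormone genes of these cells and with no threshold on their values, though earlier results of these data were known: Gcg, Pyy, Cck, Sct, Gip, Nts, Ghrl, Sst and Tac1 encode peptide hormones, and Chga encodes a granule protein that many of these cells share. They were 10 of 24421 genes in the count files, and all 10 were among the 13429 genes that passed the filter on low counts and were tested. Epithelial cells were released with EDTA from wild-type C57BL6/J mice, and both the jejunum and the ileum were sampled from 4 mice at postnatal day 6 (P6) and from 4 mice at P36, with 2 females (replicates 1 and 2) and 2 males (replicates 3 and 4) at each age. A replicate number marks the same mouse in both regions of an age, and the P6 and P36 mice were different animals. In the sample titles the P6 mice of replicates 1 and 3 share one name prefix and those of replicates 2 and 4 another, and what the prefix stands for is not given. No animal carried a transgene or received a treatment according to the labels. The fraction was not sorted for enteroendocrine cells, so each value is a level in bulk epithelium, in which fewer cells of a type and less RNA per cell cannot be told apart.

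Enteroendocrine cells sense nutrients at the luminal surface and release peptides from dense-core granules at their base. They arise from intestinal progenitors through the transcription factor Neurog3, and which hormones a cell makes depends on where it sits along the gut: Gip and Cck are known from the proximal small intestine, Gcg (the precursor of GLP-1 and GLP-2) and Pyy from the distal intestine, and Nts from the ileum and from mature villus cells. Prohormones are cut by convertases such as Pcsk1, trimmed by Cpe and amidated by Pam before release.

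On mm10, the annotated genes were Gcg at chr2:62474530-62483653 (minus strand), Pyy at chr11:102106676-102107776 (minus strand), Cck at chr9:121489824-121495694 (minus strand), Sct at chr7:141278329-141279133 (minus strand) and Gip at chr11:96024545-96030828 (plus strand). The others were Nts at chr10:102481756-102490418 (minus strand), Ghrl at chr6:113716119-113719911 (minus strand), Sst at chr16:23889581-23890844 (minus strand), Tac1 at chr6:7555071-7562973 (plus strand) and Chga at chr12:102554969-102565027 (plus strand). Counts were summed over the exons of each.

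The promoters of 4 members are printed, Gip and Cck as the pair higher in the jejunum at both ages, Gcg as the member higher in the ileum at both ages and Nts as the member whose regional difference changed with age, with the 250 bases before the RefSeq transcription start (GRCm38.p6) written 5′ to 3′ on the gene's own strand and with the letters AGATAA or TATAAA, on either strand, in capitals.
Gip promoter, chr11:96024295-96024544, plus strand: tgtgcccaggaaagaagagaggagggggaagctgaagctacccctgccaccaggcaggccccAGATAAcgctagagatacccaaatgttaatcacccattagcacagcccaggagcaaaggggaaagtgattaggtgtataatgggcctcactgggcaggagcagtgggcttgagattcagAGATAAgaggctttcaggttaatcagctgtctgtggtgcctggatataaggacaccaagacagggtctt
Cck promoter, chr9:121495695-121495944, minus strand: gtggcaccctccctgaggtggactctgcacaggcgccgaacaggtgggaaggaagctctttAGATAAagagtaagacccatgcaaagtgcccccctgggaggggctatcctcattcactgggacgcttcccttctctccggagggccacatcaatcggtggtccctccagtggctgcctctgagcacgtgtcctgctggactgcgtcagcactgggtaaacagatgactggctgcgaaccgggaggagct
Gcg promoter, chr2:62483654-62483903, minus strand: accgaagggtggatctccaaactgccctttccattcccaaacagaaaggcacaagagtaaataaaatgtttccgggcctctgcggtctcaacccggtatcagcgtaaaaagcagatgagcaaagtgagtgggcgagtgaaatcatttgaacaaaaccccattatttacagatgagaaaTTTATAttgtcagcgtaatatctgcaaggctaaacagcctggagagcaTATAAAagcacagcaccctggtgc
Nts promoter, chr10:102490419-102490668, minus strand: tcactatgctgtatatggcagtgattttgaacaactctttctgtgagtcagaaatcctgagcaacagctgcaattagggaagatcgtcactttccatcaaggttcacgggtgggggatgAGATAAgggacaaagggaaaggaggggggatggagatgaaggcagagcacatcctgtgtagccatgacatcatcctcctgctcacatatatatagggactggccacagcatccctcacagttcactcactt
A window was found for all 10 members, and 8 of the 10 began at the gene start given in the count files. The letters AGATAA, a sequence that GATA factors are known to bind, occurred in 4 members (Gip, Cck, Nts and Tac1) and in 9.99% of 32851 promoter windows of this length. Gip held them at 2 places, beginning at positions -188 and -69 relative to the start. TATAAA occurred in Gcg and Sct and in 12.4% of all windows. The cyclic AMP response element TGACGTCA occurred in Sst alone among the members and in 1.55% of all windows. CANNTG, the E-box that NeuroD1 and related factors bind, was present in 10 of 10 members and in 66.2% of all windows, and TTTATT in Gcg and Sst and in 18.1%. These matches describe the printed letters and were not tested as binding sites.

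Library totals lay between 12159237 and 25947276 counts, and levels are given as CPM (counts scaled to the library total after edgeR's TMM factors). The members' own counts ran from 10 (Pyy in P36 jejunum replicate 1) to 5582 (Nts in P6 ileum replicate 4) in a library. A pair of P6 ileum libraries stood apart from their group. Replicate 4 departed from the median of its group in step with the GC content of the transcripts (Spearman's rho -0.749 across 12948 genes, against -0.220 to 0.478 in the other 15 libraries). Genes are not independent replicates, and each median includes the library itself, so the values within a group depend on each other. Sct, the member with the highest GC content (59.5%), stood at 2.40 CPM there against 23.9 to 30.1 CPM in replicates 1 to 3, Chga at 14.5 against 42.3 to 51.0 CPM, and Pyy at 9.07 against 24.5 to 41.0 CPM. Nts, with the lowest GC content (39.4%), was highest in that library at 274 CPM against 157 to 185 CPM. Replicate 2 carried connective tissue transcripts: 9 smooth muscle and fibroblast markers summed to 422 CPM there and to between 18.1 and 40.7 CPM in the other 3 P6 ileum libraries. Results that use the P6 ileum were therefore recomputed without each of these libraries, without both, and with a correction for GC content. That correction was fitted to each library's deviation from the median of its own group. It thus uses the group labels and narrows the GC-linked spread within groups. Smaller p-values under it are partly built in and are not separate support.

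**Figure D1:**
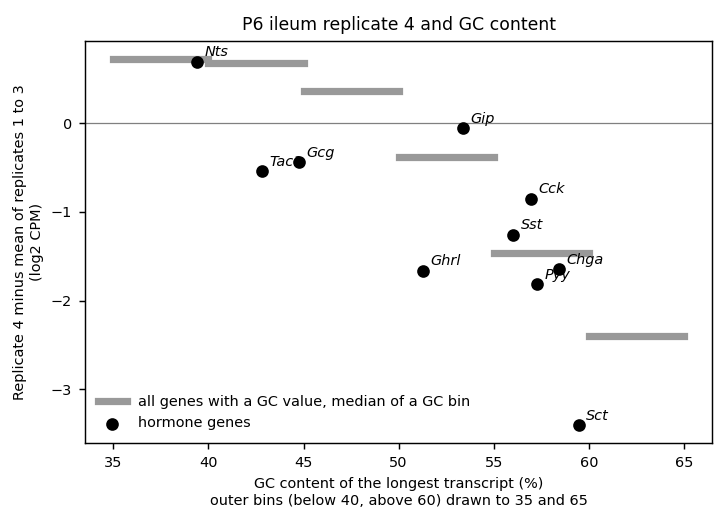
Difference between P6 ileum replicate 4 and the mean of replicates 1 to 3 (log2 CPM) plotted against the GC content of the longest transcript for the 10 hormone genes (points) and for all genes in GC bins (grey bars, medians). The bin medians ran from 0.73 below 40% GC to -2.39 above 60%, and Sct lay lowest at -3.40.

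Epithelial markers were abundant in every library, with 6 epithelial genes summing to between 3846 and 15910 CPM. Pancreatic and gastric tissue, which also make some of these hormones, were checked by their markers. Of 7 pancreatic genes, Ins1, Cpa1 and Prss2 had no count in any library, and Ctrb1 accounted for most of a summed level of 89.2 to 278 CPM in the P6 jejunum. Of 6 gastric genes, Gkn2, Muc5ac and Tff1 had no count in any library and the sum stayed at or below 0.871 CPM.

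Which region carried which hormone was compared first at P6. Gip, the incretin of the proximal intestine, had jejunal levels of 96.2, 65.2, 69.5 and 74.4 CPM in the 4 mice and ileal levels of 4.99, 4.35, 1.36 and 2.99 CPM. Each jejunal library lay far above each ileal one. The fitted difference was 4.47 on the log2 scale (SE 0.33, 22.2-fold, adjusted p = 1.34e-07, edgeR). Cck, which drives gallbladder contraction and pancreatic secretion, was also higher in the jejunum, at 11.6, 8.88, 6.46 and 12.3 CPM against 4.39, 3.66, 4.45 and 2.26 CPM, without overlap between the groups. Its log2 difference was 1.41 (SE 0.27, adjusted p = 0.00116).

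3 members were higher in the P6 ileum. Gcg stood at 49.6, 34.7, 48.5 and 32.2 CPM in ileal libraries and at 23.0, 16.0, 16.8 and 15.7 CPM in jejunal ones, with no overlap (log2 difference -1.21, SE 0.29, adjusted p = 0.00532). Nts encodes neurotensin, which promotes fat absorption, and was the most abundant member by count. It read 185, 157, 166 and 274 CPM in the ileum against 114, 100.1, 98.2 and 88.0 CPM in the jejunum, again without overlap (log2 difference -0.97, SE 0.26, adjusted p = 0.0135). Without replicate 4 its difference was -0.76 (adjusted p = 0.0327) and without replicates 2 and 4 it was -0.84 (adjusted p = 0.04). Pyy, the ileal brake peptide, was at 33.2, 24.5, 41.0 and 9.07 CPM on the ileal side and at 11.6, 6.25, 8.82 and 5.17 CPM on the jejunal side. The groups overlapped through ileum replicate 4, although each of the 4 mice had more Pyy in the ileum. Its log2 difference of -1.75 (SE 0.61) passed narrowly (adjusted p = 0.0458) and no longer passed when any one of 7 of the 8 P6 libraries was left out (adjusted p up to 0.122), but without replicate 4 it was -2.04 (adjusted p = 0.0138).

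The other 5 members did not pass at P6. Ghrl, the appetite hormone ghrelin, was at 7.68, 14.9, 5.41 and 19.9 CPM in jejunal libraries against ileal values of 4.39, 12.8, 4.72 and 1.96 CPM, higher in the jejunum of 4 of 4 mice (log2 difference 1.00, SE 0.47, adjusted p = 0.129). Its jejunal spread followed the name prefix of the mice, with the higher values in replicates 2 and 4 and the lower ones in replicates 1 and 3, and the part of the prefix in this result was not tested. Without ileum replicate 2, the library with connective tissue transcripts, the difference was 1.70 (adjusted p = 0.0092). Sst, the inhibitory peptide somatostatin, differed by 0.39 (SE 0.29, adjusted p = 0.34), Tac1, the substance P precursor, by -0.42 (SE 0.29, adjusted p = 0.312), Sct, secretin, by -0.18 (SE 0.47, adjusted p = 0.814) and Chga by 0.03 (SE 0.27, adjusted p = 0.94). Without replicate 4 the difference of Sct was -0.55 (adjusted p = 0.0648) and that of Chga -0.23 (adjusted p = 0.232). In all, 5 of the 10 members passed at P6, Cck and Gip on the jejunal side (11.1% of tested genes) and Gcg, Pyy and Nts on the ileal side (14.8%), against 25.9% of all tested genes. Groups did not overlap in 4 members, against 30.1% of tested genes. The median log2 difference of the members was -0.07 and that of all tested genes -0.05.

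**Figure D2:**
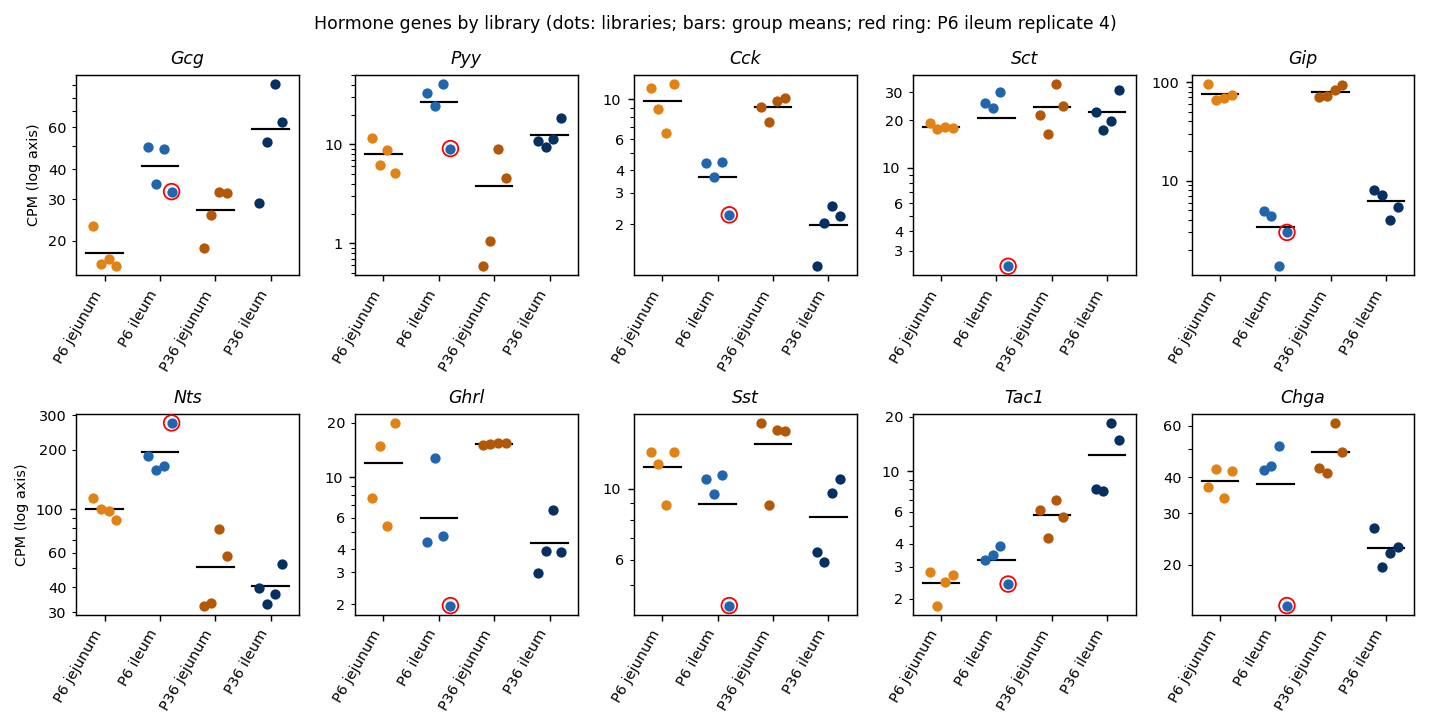
CPM (log axis) of each member in each of the 16 libraries, by group, with bars for the group means and a red ring around P6 ileum replicate 4. Gip separates jejunum from ileum at both ages, Nts falls with age in both regions, and the ringed library lies lowest of the P6 ileum for 8 members and highest for Nts.

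At P36 the jejunal side of the list was longer. Gip was at 70.8, 72.1, 82.1 and 92.4 CPM in jejunal libraries and at 8.13, 7.09, 4.00 and 5.46 CPM in ileal ones, a log2 difference of 3.69 (SE 0.31, 12.9-fold, adjusted p = 1.22e-06). Cck stood at 9.06, 7.46, 9.79 and 10.2 CPM against 1.16, 2.04, 2.53 and 2.22 CPM (log2 difference 2.19, SE 0.28, 4.57-fold, adjusted p = 6.96e-05). For both genes the lowest jejunal value lay above the highest ileal value. Ghrl was nearly constant in the jejunum, at 15.0, 15.2, 15.4 and 15.5 CPM, and its ileal levels were 2.99, 3.91, 6.62 and 3.88 CPM (log2 difference 1.80, SE 0.48, adjusted p = 0.0177). It did not pass without ileum replicate 2 (adjusted p = 0.051) or replicate 4 (adjusted p = 0.0526). Chga was at 43.0, 41.3, 61.3 and 48.7 CPM in jejunal libraries against 26.6, 19.6, 21.97 and 23.0 CPM in ileal ones, with no overlap (log2 difference 1.09, SE 0.27, adjusted p = 0.0123).

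Gcg and Tac1 were higher in the P36 ileum. Gcg read 29.0, 52.2, 91.4 and 63.3 CPM there and 18.7, 25.7, 32.1 and 31.7 CPM on the jejunal side. The groups overlapped, but the ileum was higher in 4 of 4 mice (log2 difference -1.13, SE 0.28, adjusted p = 0.0126). Tac1 was at 7.96, 7.83, 18.5 and 14.8 CPM in the ileum against 6.12, 4.28, 7.00 and 5.65 CPM in the jejunum, without overlap (log2 difference -1.09, SE 0.28, adjusted p = 0.0132). Ileum replicate 3 was the highest library for both genes, and without it neither passed (log2 difference -0.83, adjusted p = 0.0522, for Gcg and -0.82, adjusted p = 0.055, for Tac1). Leaving out jejunum replicate 1 also ended the call of Gcg (adjusted p = 0.0512).

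Pyy spread most among the mice at P36, with 0.588, 1.06, 9.02 and 4.53 CPM in jejunal libraries against 10.8, 9.36, 11.2 and 18.4 CPM in ileal ones. The 2 groups did not overlap, yet the difference missed the threshold in the fit without a block (log2 difference -1.70, SE 0.63, adjusted p = 0.0803). With the mouse as a replicate block it was -2.23 (adjusted p = 0.0183), and without jejunum replicate 3 it was -2.56 (adjusted p = 0.0133). Sst differed by 0.76 (SE 0.29, adjusted p = 0.0892). With the GC correction, which narrows the spread within groups, the Sst difference was similar at 0.75 and passed (adjusted p = 0.0179). Sct (0.10, SE 0.46, adjusted p = 0.921) and Nts (0.32, SE 0.26, adjusted p = 0.469) did not pass. Altogether 6 of 10 members passed at P36, 4 on the jejunal side (8.3% of tested genes) and 2 on the ileal side (7.8%), against 16.1% of tested genes, and 6 had groups that did not overlap, against 26.9%. The members' median log2 difference was 0.54 and that of all tested genes -0.04. With the fold minimum that the study used in addition (a log2 difference over 2 in size), Gip passed at P6 (6.5% of tested genes) and Gip and Cck at P36 (3.6%).

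**Figure D3:**
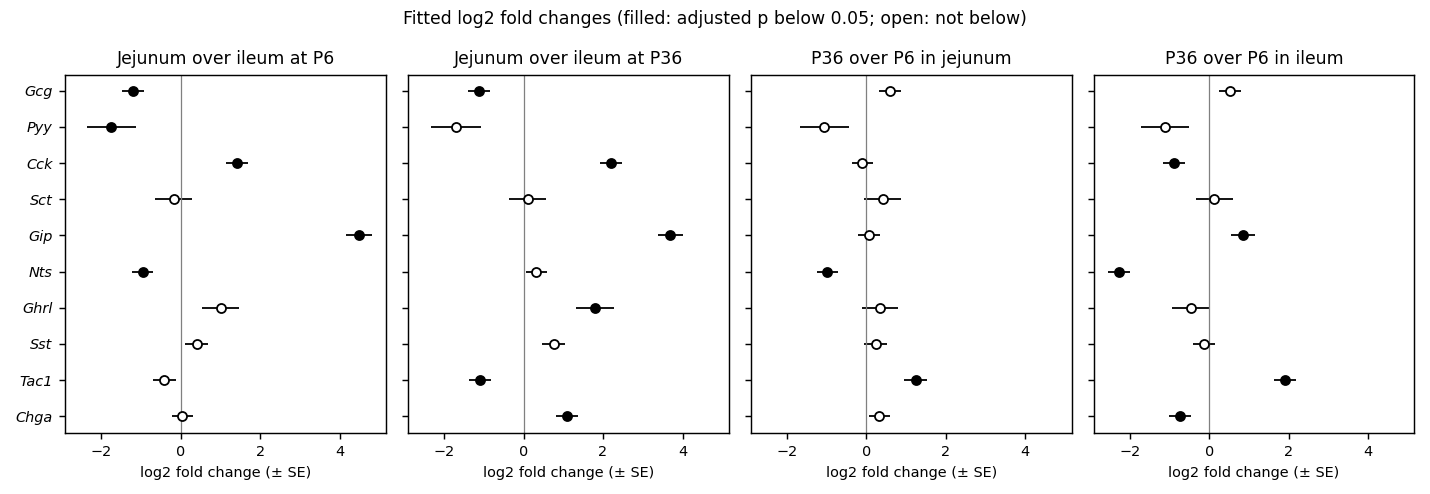
Fitted log2 fold changes with standard errors for the 10 members in the comparisons of region at each age and of age in each region (n = 4 libraries a group), filled where the adjusted p was below 0.05. Gip lies furthest to the right in both regional panels, and Nts and Tac1 lie on opposite sides of 0 in both age panels.

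How the hormones changed between P6 and P36 was compared within each region. In the jejunum, 2 members passed, 1 in each direction, against 51.6% of all tested genes (24.7% rose and 26.9% fell). Nts fell from between 88.0 and 114 CPM at P6 to 32.4, 33.2, 79.6 and 57.8 CPM at P36 (log2 change -0.98, SE 0.26, adjusted p = 0.00562). Tac1 rose from between 1.83 and 2.79 CPM to between 4.28 and 7.00 CPM (log2 change 1.24, SE 0.29, 2.36-fold, adjusted p = 0.00187). Neither gene's age groups overlapped, which held for 63.8% of tested genes. The estimates for Gip (0.06, SE 0.28, adjusted p = 0.885) and Cck (-0.10, SE 0.26, adjusted p = 0.766) lay close to 0. Those of Gcg (0.60, SE 0.28, adjusted p = 0.0895), Pyy (-1.06, SE 0.62, adjusted p = 0.169), Sct (0.41, SE 0.47), Ghrl (0.35, SE 0.46), Sst (0.24, SE 0.28) and Chga (0.33, SE 0.27) did not pass either. With only the 8 jejunal libraries fitted, Gcg (0.61, adjusted p = 0.014) and Chga (0.34, adjusted p = 0.0397) passed. Chga also passed with the GC correction (0.33, adjusted p = 0.0265), which narrows the spread within groups. Without P36 jejunum replicate 3, the library with the most Pyy in its group, the change of Pyy was -1.88 (adjusted p = 0.0201).

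In the ileum, 5 members passed, 2 higher and 3 lower at P36, against 55.7% of tested genes (25.5% rose and 30.1% fell). Nts fell 4.82-fold, from between 157 and 274 CPM to 39.6, 33.1, 37.2 and 52.5 CPM (log2 change -2.27, SE 0.27, adjusted p = 4.16e-06), and the change was -2.11 without P6 replicates 2 and 4. Tac1 rose from 3.26, 3.49, 3.90 and 2.40 CPM to between 7.83 and 18.5 CPM (log2 change 1.91, SE 0.29, 3.76-fold, adjusted p = 3.6e-05). These 2 genes were the members whose age groups did not overlap, against 44.4% of tested genes. Cck fell (log2 change -0.89, SE 0.28, adjusted p = 0.0136), with group means of 3.69 CPM at P6 and 1.99 CPM at P36. Gip rose (0.84, SE 0.30, adjusted p = 0.0272), from a mean of 3.42 to 6.17 CPM, and did not pass without P6 replicate 4 (adjusted p = 0.0518), without P36 replicate 1 (0.0846) or without P36 replicate 2 (0.0629). With only the 8 ileal libraries fitted, Cck (-0.87, adjusted p = 0.0732), Gip (0.86, adjusted p = 0.116) and Chga (-0.72, adjusted p = 0.118) did not pass.

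Chga fell in the ileum (log2 change -0.73, SE 0.27, adjusted p = 0.0322), and this value depended on P6 replicate 4. Without that library the change was -0.999 (adjusted p = 2.5e-05), whereas leaving out any one of 6 of the other 7 ileal libraries ended the call (adjusted p up to 0.113). Pyy missed the threshold at -1.12 (SE 0.60, adjusted p = 0.127) and passed without P6 replicate 4 (-1.41, adjusted p = 0.0434). Gcg (0.52, SE 0.28, adjusted p = 0.129), Sct (0.13, SE 0.47), Ghrl (-0.45, SE 0.48) and Sst (-0.13, SE 0.29) did not pass. The median change of the members was 0.28 in the jejunum and -0.29 in the ileum, and that of all tested genes -0.01 and -0.03. Of the members, only Nts in the ileum also met the fold minimum, which 16.4% of tested genes met in each region.

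Whether a regional difference itself depended on age was tested as an interaction, the regional log2 difference at P6 minus that at P36. Nts was the member that passed (-1.29, SE 0.37, adjusted p = 0.0423), against 8.69% of tested genes (3.68% with a positive and 5.01% with a negative value): it was higher in the ileum at P6, and at P36 its jejunal and ileal levels overlapped. Leaving out any one of 11 of the 16 libraries ended the call (adjusted p up to 0.0886). With the replicate block the value was -1.17 (adjusted p = 0.0599), and without P6 ileum replicate 4 it was -1.08 (adjusted p = 0.0524). Chga had an interaction of -1.06 (SE 0.38, adjusted p = 0.106), which was -1.32 (adjusted p = 0.000409) without P6 ileum replicate 4 and -1.26 (adjusted p = 0.000157) with the GC correction. The smaller p-value under that correction is partly built in, because it was fitted within groups. For Gip (0.78, SE 0.41, adjusted p = 0.273), Cck (-0.78, SE 0.38, adjusted p = 0.238), Ghrl (-0.80, SE 0.66, adjusted p = 0.504) and Tac1 (0.67, SE 0.40, adjusted p = 0.333) a change of the regional difference with age was not detected.

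Levels of different hormones were compared per length, as CPM per kb of exon. In the P6 jejunum Gip ranked first (118 ± 21.2 CPM per kb, SD, n = 4), followed by Nts (84.9 ± 9.22) and Sct (33.8 ± 1.42), and neighbours in that order overlapped only from Sct downwards. Ghrl, Chga, Sst, Gcg and Pyy lay between 16.0 and 21.5 CPM per kb and overlapped, and Cck (11.5 ± 3.12) was above Tac1 (2.36 ± 0.416), the last. In the P6 ileum Nts was first (166 ± 45.3) with no overlap to Pyy (54.0 ± 27.4), while Gip (5.27 ± 2.48), Cck (4.32 ± 1.195) and Tac1 (3.16 ± 0.612) formed an overlapping low end. Gip was again first in the P36 jejunum (122 ± 15.5), and the next 6 members overlapped in sequence from Sct (44.97 ± 13.8) to Sst (23.1 ± 5.52). In the P36 ileum Gcg (54.1 ± 23.8), Sct (42.0 ± 10.9), Nts (34.4 ± 7.12) and Pyy (24.9 ± 8.07) overlapped in turn at the top and Cck was last (2.33 ± 0.688).

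Summed over the 9 peptide hormones, the level was 324 ± 37.9 CPM per kb at P6 in the jejunum and 334 ± 30.0 in the ileum, and at P36 309 ± 61.0 and 201 ± 44.2 (SD, n = 4). The make-up of this sum differed by region. Gip supplied 36.2% ± 2.59 of it in the jejunum at P6 and 40.1% ± 4.55 at P36, but 1.596% ± 0.741 and 5.13% ± 2.46 in the ileum at these ages. Nts supplied 38.9% to 43.8% of the sum in P6 ileum replicates 1 to 3 and 76.2% in replicate 4, and 17.4% ± 2.93 in the P36 ileum. Gcg had the largest mean share in the P36 ileum, 26.4% ± 8.48, with single libraries between 16.5% and 36.5%. Tac1 supplied 0.731% ± 0.109 and 0.942% ± 0.148 in the P6 jejunum and ileum and 1.82% ± 0.290 and 5.74% ± 1.45 at P36. The shares add up to the whole, so they are not independent of each other.

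**Figure D4:**
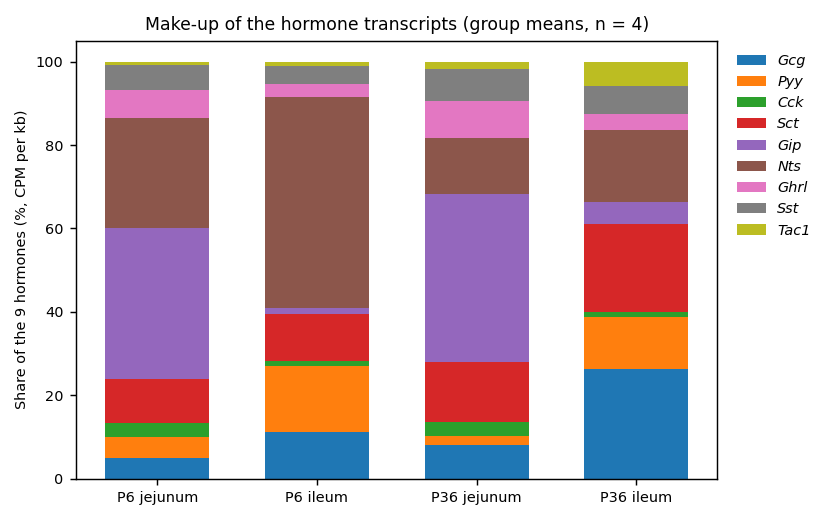
Mean share (%) of each of the 9 peptide hormones in their summed CPM per kb in each group (n = 4 libraries). Gip fills 36.2% and 40.1% of the jejunal bars and under 6% of the ileal bars, and Nts fills 50.4% of the P6 ileum, a mean raised by replicate 4.

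Set against Chga in the same library, as a log2 ratio of CPM, the regional side of Gip, Gcg and Tac1 at P36 was that of their levels. In contrast, Sct, Sst and Nts had the higher mean ratio in the ileum and the higher mean level in the jejunum. Their ratios in the jejunum and ileum were -1.04 ± 0.21 and -0.04 ± 0.31 for Sct and -0.03 ± 0.40 and 0.82 ± 0.26 for Nts. Those of Sst (-1.83 ± 0.35 and -1.52 ± 0.46) overlapped. Gip lay above Chga in the jejunum (0.97 ± 0.33 at P6 and 0.72 ± 0.21 at P36) and below it in the ileum (-3.48 ± 1.25 and -1.93 ± 0.43). The ratio of Gcg to Chga at P36 was -0.86 ± 0.26 in the jejunum and 1.26 ± 0.82 in the ileum, and that of Tac1 was -3.08 ± 0.19 and -0.99 ± 0.67. Chga is itself a member whose level differed between these groups, so these ratios are descriptions.

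Members also varied together among libraries of one group. Across 15 libraries, with P6 ileum replicate 4 left out, deviations from the group means correlated most closely between Pyy and Nts (Pearson's r 0.950), Sct and Nts (0.855), Sst and Tac1 (0.763) and Pyy and Sct (0.753). With that library included the closest pair was Sct and Chga (0.953), which had an r of 0.683 without it, while Pyy and Nts had 0.580 and Sct and Nts -0.16 with it. These points share library depth and base composition, and the correlations are descriptions. In the P36 jejunum, replicate 3 had the highest Pyy, Nts, Sct, Chga, Tac1 and Gcg of its group. Over the 16 libraries, the genes whose log2 CPM was most like a member's were Slc4a5, Slc9a3 and Dhrs1 for Gip (r 0.966, 0.966 and 0.964), Grcc10, Rab1b and Med25 for Sct (0.965, 0.963 and 0.962), Rpl10a, Csrp2 and H3f3a for Tac1 (0.962, 0.956 and 0.956) and Dusp22, Fam50a and Kantr for Nts (0.960, 0.957 and 0.951). The closest gene was Hdhd2 for Ghrl (0.944), Mex3b for Pyy (0.939), Prep for Gcg (0.933), Isca1 for Cck (0.918), Fuom for Sst (0.881) and 1700021K19Rik for Chga (0.879). The genes closest to the mean deviation of the members within groups were Paqr5 (0.936, and 0.859 without P6 ileum replicate 4), St3gal3 (0.918, and 0.878 without P6 ileum replicate 4), Tbc1d25 (0.918, and 0.808 without P6 ileum replicate 4), Man2c1os (0.911, and 0.790 without P6 ileum replicate 4), Irf3 (0.907, and 0.893 without P6 ileum replicate 4).

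The granule and processing machinery of endocrine cells was followed as a list of 24 genes, of which 22 were tested. At P6, 11 of the 22 passed (edgeR), each of these 11 with the higher level in the ileum, against 14.8% of all tested genes that were higher there and 11.1% higher in the jejunum. The alternatives called between 9 and 12, each on the ileal side, with 12 by DESeq2 and 9 without P6 ileum replicates 2 and 4. Some of these genes, among them Scg2, Cpe and Gnao1, are also made by neurons. Markers of other cells also differed by region, here with P6 ileum replicate 2 left out. The neuronal markers without Ret summed to 0.654 to 0.893 CPM in jejunal and 1.43 to 2.21 CPM in ileal libraries of P6 mice. Smooth muscle and fibroblast markers gave 5.75 to 16.3 and 18.1 to 40.7 CPM, and leukocyte markers 0.960 to 2.54 and 2.71 to 9.56 CPM. Enteric glia markers went the other way (7.93 to 19.7 and 3.38 to 4.83 CPM), and endothelial markers overlapped (1.88 to 5.00 and 1.57 to 5.30 CPM). The part of these cells in the result was not tested. Scg2, a granin that is cut into secretory peptides, had P6 means of 3.92 CPM (jejunum) and 10.2 CPM (ileum) (log2 difference -1.38, adjusted p = 0.000179). The prohormone convertase Pcsk1 (-0.70, adjusted p = 0.0114), the carboxypeptidase Cpe (-0.97, adjusted p = 0.00577) and the amidating enzyme Pam (-0.88, adjusted p = 0.0308) were also higher in the ileum, though Pam did not pass without P6 ileum replicate 2 (-0.85, adjusted p = 0.0566) or replicate 4 (-0.62, adjusted p = 0.085). The granule membrane protein Ptprn2 (-1.21) and the calcium sensor Syt7 (-1.45) were higher in the ileum at both ages, though both also occur outside endocrine cells. At P36, 3 of the 22 were on the jejunal side (Chgb, Cadps and Snap25) and 2 on the ileal side (Syt7 and Ptprn2), against 8.3% and 7.8% of tested genes. DESeq2 and the GC correction each called 4 and 4, and the GC correction with the replicate block 3 and 5. With the replicate block alone Snap25 did not pass (1.66, adjusted p = 0.072). The regional difference changed with age for 6 of the 22 (Cpe, Chgb, Scg2, Scg3, Cadps and Snap25), each with a negative interaction, as for Nts, against 5.01% of tested genes. The median log2 difference of the list was -0.87 at P6 and 0.12 at P36.

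With age in the ileum, 11 of the 22 fell and 2 rose, against 30.1% and 25.5% of tested genes. Chgb, the other chromogranin of these granules, fell from a mean of 72.5 to 37.0 CPM (log2 change -0.97, adjusted p = 0.000404) and Cpe from 16.6 to 7.69 CPM (-1.11, adjusted p = 0.000832). In the jejunum 6 rose and 3 fell, against 24.7% and 26.9% of tested genes. Pcsk1 was among those that rose (0.62, adjusted p = 0.0102) and Pam and Cplx2 were among those that fell. Pam and Cplx2 fell in both regions, and Pam is also made by many other cells.

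**Figure D5:**
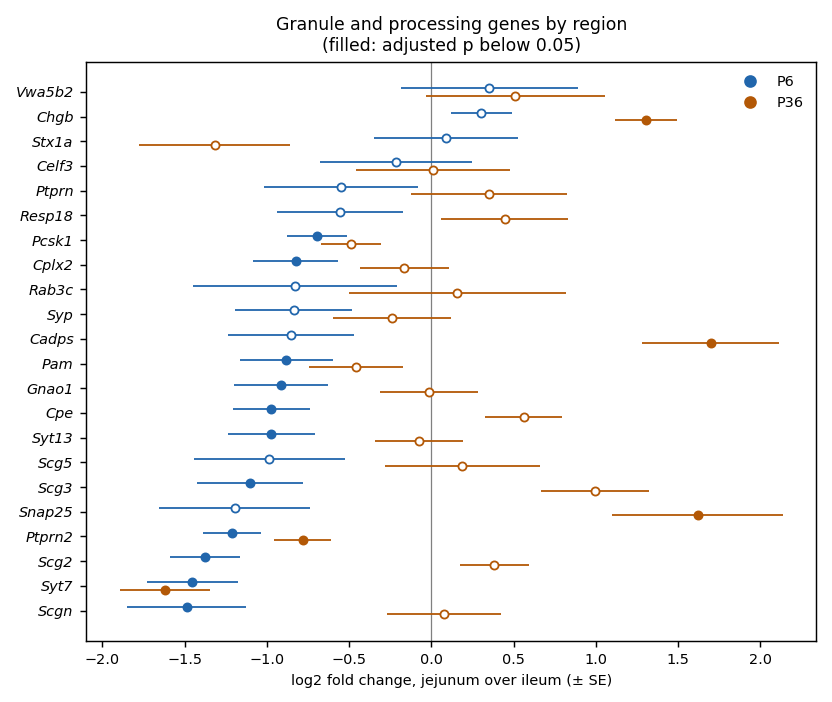
Log2 difference between jejunum and ileum, with standard error, for the 22 tested granule and processing genes at P6 (blue) and P36 (brown), filled where the adjusted p was below 0.05. At P6, 11 genes were called and each lay on the ileal side, and at P36 the called genes were Chgb, Cadps and Snap25 on the jejunal side and Syt7 and Ptprn2 on the ileal side.

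Transcription factors of the enteroendocrine lineage were mostly low. Neurog3, the factor that commits progenitors to the lineage, had group means between 1.08 and 1.62 CPM and passed in none of the comparisons. Of 24 tested factors on a list of 26, 8 passed at P6, each of these 8 with the higher level in the ileum, against 14.8% of tested genes (8 by DESeq2 and 7 without P6 ileum replicates 2 and 4, again on the ileal side). At P36, 5 passed on the ileal side and 3 (Neurod1, Rfx6 and Lmx1a) on the jejunal side, against 7.8% and 8.3% of tested genes. With the mouse as a replicate block these 3 did not pass (adjusted p = 0.0684, 0.0635 and 0.0581). Rfx6, needed for Gip-producing cells, had P36 means of 2.56 CPM (jejunum) and 1.25 CPM (ileum) (log2 difference 1.03, adjusted p = 0.0334, and 1.06 with adjusted p = 0.0635 under the replicate block). Atoh1, Foxa1, Foxa2 and Tox3, the factors with the smallest adjusted p, also act in goblet or Paneth cells. Goblet markers (7 genes) summed to 1754 to 4191 CPM at P6 and 11533 to 23803 CPM at P36, and their part in the rise of Atoh1 (log2 change 1.90 in the jejunum and 1.81 in the ileum) was not tested.

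Serotonin synthesis, the other product of enterochromaffin cells, was represented by 8 tested genes. Tph1, the rate-limiting enzyme, had jejunal and ileal means of 4.67 and 5.34 CPM at P6 and of 8.14 and 3.21 CPM at P36. It was higher in the P36 jejunum (log2 difference 1.33, adjusted p = 0.0101), as was Trpa1, an irritant channel of these cells (mean 1.64 against 0.0580 CPM). Both had the same direction as Chga at that age. Trpa1 was also called on the jejunal side at P6, where Chga did not pass (0.03, adjusted p = 0.94). Slc18a1, known as the monoamine transporter of their granules, fell with age from 113 to 17.8 CPM in the jejunum (log2 change -2.67, adjusted p = 5.9e-09) and from 136 to 12.5 CPM in the ileum (-3.44, adjusted p = 6.3e-10). At P6 Slc18a1 was far above Tph1, which rose with age in the jejunum. Which cells made Slc18a1 here was not tested. Ddc, Maoa and Maob, also on this list, are made by enterocytes too.

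Of 16 nutrient receptors, 9 were tested. Ffar4 and Ffar2, which sense long-chain and short-chain fatty acids, were higher in the ileum at both ages (Ffar4 -2.14 at P6 and -2.03 at P36, adjusted p = 5.24e-05 and 0.000103, and Ffar2 -1.21 and -1.27, adjusted p = 0.00144 and 0.00251), in the direction of Gcg. Cnr1, the cannabinoid receptor of Cck cells, had P36 means of 1.21 CPM (jejunum) and 0.134 CPM (ileum) (log2 difference 3.09, adjusted p = 0.00116), in the direction of Cck, and was higher in the ileum at P6 (-1.41, adjusted p = 0.032), opposite to Cck. That P6 call was lost without ileum replicate 2, which carried connective tissue and neuronal transcripts (-0.98, adjusted p = 0.118). Receptors for the hormones themselves were sparse in this fraction, and 5 of 23 passed the filter, against 13429 of all 24421 genes. Sort1, which binds neurotensin among many other ligands, was the most abundant, with means of 52.7 and 112 CPM at P6 and 196 and 302 CPM at P36, and it rose with age in both regions while Nts fell. Gipr had P6 means of 0.459 CPM (jejunum) and 1.32 CPM (ileum) (log2 difference -1.51, adjusted p = 0.0141). Tacr1, the receptor of substance P, was at jejunal and ileal means of 0.827 and 1.99 CPM at P6, with 1 count in all 8 P36 libraries together. Among 7 peptidases that inactivate these hormones, Dpp4, which cleaves GLP-1, GIP and PYY, rose with age from 341 to 1580 CPM in the jejunum and from 342 to 821 CPM in the ileum (log2 change 2.21 and 1.26, adjusted p = 0.000184 and 0.0099). Mme (neprilysin) was higher in the jejunum at both ages.

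The other peptides of the list were few. Of 15 genes, 6 were tested, against 13429 of all 24421 genes, and Gast had 2 counts in all 16 libraries together. Insl5, known from colonic endocrine cells, had 87 counts over the 4 P6 jejunum libraries and 1 count over the 4 P36 ones. In the ileum it had 61 counts at P6 and 28 at P36 (log2 change -0.98, adjusted p = 0.289, edgeR). Insl5 was higher in the ileum at P36 (-4.36, adjusted p = 0.0258), but did not pass with the replicate block (adjusted p = 0.0776). The guanylin peptides Guca2a and Guca2b, which goblet cells and enterocytes also make, had opposite regional patterns, with Guca2a higher in the ileum (-3.23 at P6 and -1.59 at P36) and Guca2b higher in the jejunum (1.195 and 1.73).

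Tac1 is also made by enteric neurons, so neuronal markers are given beside it. Of 12 such markers, Vip and Nos1 were among those with no count in either P36 group, where Tac1 was highest. Other markers had more counts at P36 than at P6 in the jejunum, as Tac1 did: summed over the 4 libraries, Chat had 0 counts at P6 and 16 at P36, and Prph 4 and 23. Without Ret, which supplied most of the P6 sum, the neuronal markers summed to between 0.454 and 1.39 CPM at P36, to between 0.654 and 0.893 CPM in the P6 jejunum and to 1.43 to 21.3 CPM in the P6 ileum, with the highest value in replicate 2. In that replicate Tac1 stood at 3.49 CPM, within the range of replicates 1 and 3. The part of neuronal RNA in the values of Tac1 was not tested.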

How the data were processed

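Epithelial RNA of 16 libraries was analysed, 4 in each group of region and age. Per the labels and the study's methods, the authors used the Kapa kit for stranded mRNA, sequenced them on an Illumina NovaSeq, used Trimmomatic 0.38 for trimming and STAR for alignment to mm10 (2.5.3 in the submitters' processing notes, another version in the methods), and counted read pairs on exons by gene with featureCounts of Subread 1.6.3. The deposited values are raw counts, without normalization. Segment length was stated differently in the labels and the methods.

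Genes were kept with filterByExpr (13429 of 24421), given TMM factors and fitted by edgeR 4.0.16 (quasi-likelihood, R 4.3.3) with a mean for each of the 4 groups over all 16 libraries and without a block. The Benjamini-Hochberg adjustment covered every tested gene, with a threshold of 0.05. The standard error is the log2 fold change divided by the square root of F, in size. log2 CPM used a prior count of 2. P-values measure the spread between the libraries of a group, each from a different mouse, which includes differences of library preparation. The main fit treats both regions of a mouse as independent. No replicates were copies of each other (chi-square per gene between 13.2 and 272 over 24 pairs). Library totals bound the precision, and libraries with few counts of a gene are the least certain.

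The replicate number marks the same mouse by the mouse name in the titles. Deviations from the group means correlated between the regions of a mouse with r between 0.157 and 0.391 at P6 and between 0.240 and 0.347 at P36, while pairs from different mice averaged -0.106 and -0.101. Alternatives were DESeq2 1.42.0, median-of-ratios scaling, library totals, a mean CPM minimum of 1, no low count filter, fits of the 8 libraries compared, sex as a covariate, leaving out each library, and a replicate block. A GC correction (loess, span 0.3, 12948 genes with a GC value), the same with the block, and the fit without P6 ileum replicates 2 and 4 were chosen after seeing the data. The loess was fitted within groups, to each library's deviation from its group median, so it lowers the spread that the p-values measure. On simulated counts with 200 of 13429 genes changed, 190, 192, 192 and 194 were recovered for the regions at P6 and P36 and the ages in jejunum and ileum, with 4, 10, 12 and 7 false calls. The changed genes had median fitted log2 fold changes between 2.98 and 3.02. The simulation therefore does not tell how often smaller changes, as in the members other than Gip, are found. It also held no pairing of regions by mouse and no library set apart by GC content.

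The members and gene lists were chosen with earlier results of these data known. Named were all members, up to 4 genes of each list by the smallest adjusted p, receptors and convertases of members, the 3 genes most alike to each member by Pearson's r, and 5 most alike in deviation. Cpe, Chgb, Syt7, Scg3, Gnao1, Cadps, Snap25, Stx1a, Neurog3, Neurod1, Rfx6, Lmx1a, Tph1, Trpa1, Maob, Insl5 and Gast were named after their values were seen. Promoters were taken from RefSeq (GRCm38.p6). The result for 1 marker gene is not reported here.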

Additional observations from a re-analysis of the deposited data

Results flagged for a closer look

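Gcg in P6 jejunum replicate 1 stood at 23.03 CPM, far above the other 3 libraries of its group (15.7 to 16.8 CPM). Sst in P36 jejunum replicate 2 stood at 8.913 CPM, far below the other 3 (15.1 to 16.1 CPM). For each, the gap to the nearest library divided by the range of the group (0.852 and 0.87) was above Dixon's 95% critical value for 4 samples, over 40 groups examined, and chance alone sets apart about 1 group in 20. The regional difference of Nts differed between the ages by an interaction of -1.287 on the log2 scale (adjusted p = 0.0423, edgeR), with Nts higher in the ileum of 4 of 4 mice at P6 and in the jejunum of 3 of 4 mice at P36.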

How the results depend on the processing

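Over single members and alternatives, 864 values kept their direction and their side of the threshold, 39 lost their call, 23 gained one and 34 changed sign. Counts of members called moved by over 1.5 times with only the 8 libraries compared (4 by age in the jejunum and 2 in the ileum) and for the interaction (2 with the GC correction, 3 with the GC correction and replicate block, 0 without a low count filter and 0 with the replicate block). With the replicate block, Pyy passed at P36 and Nts lost its interaction, and Neurod1, Rfx6, Lmx1a and Snap25 lost their P36 calls. Leaving out 1 library gave 4 to 5 members by region at P6, 4 to 7 at P36, 2 to 3 by age in the jejunum, 3 to 5 in the ileum and 0 to 1 for the interaction. Directions turned in these uncalled values, and the cause was not tested: the Pyy interaction (0.23 with GC correction and replicate block, 0.59 with the replicate block, 0.11 with sex as a covariate), Sct by region at P6 (0.15 with the replicate block) and P36 (-0.018 with library totals), Sct by age in the ileum (-0.31 without P6 ileum replicates 2 and 4), the Sct interaction (0.070 with the replicate block) and Chga by region at P6 (-0.19 with either GC correction, -0.26 with library totals, -0.29 without P6 ileum replicates 2 and 4). Leaving out 1 library gave ranges across 0 for the interactions of Gcg (-0.37 to 0.15) and Pyy (-0.40 to 0.81), for Sct by region at P6 (-0.55 to 0.051) and P36 (-0.078 to 0.28) and by age in the ileum (-0.24 to 0.39), for Cck (-0.26 to 0.019) and Gip (-0.026 to 0.19) by age in the jejunum, for Ghrl (-0.74 to 0.25) and Sst (-0.36 to 0.0060) by age in the ileum, and for Chga by region at P6 (-0.23 to 0.20). Scaling by library totals moved the median of all genes by -0.287 and -0.137 for the regions at P6 and P36 and by -0.149 for the interaction. Low counts limit Pyy in the P36 jejunum and Cck in the P36 ileum.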
